A study of Mus musculus with 6 samples.

Results

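Placental transcripts in mouse embryonic fibroblasts (MEFs) were examined through 10 genes, the pregnancy-specific glycoprotein genes Psg16, Psg17, Psg18, Psg19, Psg21, Psg23 and Psg28, the proliferin gene Prl2c2, the placenta-specific gene Plac1 and the X-linked homeobox gene Rhox5. Every probe that the platform annotation pairs with one of these symbols or its synonyms was taken, which gave 10 of the 19057 genes and 18 of the 45281 probes on the array, and each probe is reported separately because members of these families may share probe sequence. The genes were picked with earlier results of the same comparison in view, so their differences between genotypes are a description and carry no test. RNA was measured on Illumina MouseWG-6 single-colour BeadChips, on which a probe is a bead type carrying a short sequence of a transcript, with 6 arrays in all. Of these, 3 held RNA of Dnmt1-/- MEFs (genotype Trp53-/- Dnmt1-/-) and 3 held RNA of Dnmt1+/+ MEFs (genotype Trp53-/- Dnmt1+/+). Dnmt1-/- stands here for a hypomorphic Dnmt1 allele on both chromosomes, and cells of both genotypes lack Trp53. No treatment was given. The background strain is given as unknown, and no source used here names more than 1 line per genotype, so effects of the genotype and of the line it was read in cannot be told apart. Nothing in the labels says that the 3 arrays of a genotype came from separate cultures, so their spread, and any p-value, may be technical.

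Psg genes encode secreted glycoproteins of the carcinoembryonic antigen family that are made by trophoblast, the epithelial lineage of the placenta, and lie in a cluster on chromosome 7. Proliferin is a prolactin-like hormone of trophoblast giant cells that stimulates vessel growth and was first cloned from growth-stimulated mouse fibroblasts, Plac1 encodes a trophoblast surface protein, and Rhox5 encodes a transcription factor of the reproductive homeobox cluster on the X chromosome that is used in placenta and in Sertoli cells of the testis. DNMT1 copies cytosine methylation at CG dinucleotides onto newly made DNA strands, and placental genes of several families are known to be methylated and silent in cells of the embryo proper.

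Promoter windows of members are printed because CG dinucleotides are the substrate of DNMT1 and because those of Psg23 and Psg21 have nearly the same sequence. Of the 2 Psg23 probes 1 was above background, while the other Psg23 probe and the single Psg21 probe were not. The RefSeq promoter table (build GRCm38.p6) held 9 windows of 7 members, and the 250 bases before each annotated start were used. CG is in capitals in the windows of Psg23 (chr7:18616502-18616751, minus strand), Psg21 (chr7:18656726-18656975, minus strand) and Rhox5 (chrX:37754358-37754607, plus strand), written 5′ to 3′.
Psg23: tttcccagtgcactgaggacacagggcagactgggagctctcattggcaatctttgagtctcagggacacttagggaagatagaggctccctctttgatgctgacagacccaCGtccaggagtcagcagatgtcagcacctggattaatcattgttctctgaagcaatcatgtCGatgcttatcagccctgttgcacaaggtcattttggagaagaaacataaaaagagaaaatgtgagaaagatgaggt
Psg21: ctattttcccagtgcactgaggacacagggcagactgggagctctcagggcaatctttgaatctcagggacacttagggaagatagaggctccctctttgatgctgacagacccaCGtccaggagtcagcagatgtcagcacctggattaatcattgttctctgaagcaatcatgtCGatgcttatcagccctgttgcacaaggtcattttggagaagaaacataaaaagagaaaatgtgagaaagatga
Rhox5: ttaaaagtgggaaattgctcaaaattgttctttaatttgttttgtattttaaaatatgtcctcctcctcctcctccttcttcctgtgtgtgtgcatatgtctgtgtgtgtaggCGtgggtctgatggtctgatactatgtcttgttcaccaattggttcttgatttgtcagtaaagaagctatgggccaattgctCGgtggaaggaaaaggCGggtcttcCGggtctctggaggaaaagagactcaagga

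Each of these windows held fewer CG than the median window of the table. The letters CG, which read the same on both strands, occurred 2 times in the Psg23 window, 2 times in that of Psg21, 3 times in that of Psg17 and 1 time in that of Psg28. Both Psg18 windows held 2, the Plac1 windows held 2 and 4, and the Rhox5 window held 4. Over all 32841 windows of the table the median was 6, and 92.1% of windows held at least 1 CG. A window with 2 was above 18.8% of all windows and a window with 4 above 37.8%. With ties counted, these shares were 29.0% and 44.4%, so the windows with 4 were not far from the middle. Among the 5 Psg genes with a window, pairwise identity ranged from 77.4 to 96.4%, with 96.1% between Psg23 and Psg21 and 96.4% between Psg18 and Psg28. Pairs that included Plac1 or Rhox5 had 44.2 to 50.9% identity. Psg16, Psg19 and Prl2c2 are named only.

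The arrays and the targeted gene were compared first. Mean raw signal was 397, 259 and 217 on Dnmt1-/- replicates 1 to 3 and 326 to 357 on the Dnmt1+/+ arrays, and 14699 to 16499 probes per array were above background, which here means a detection p under 0.01. Across tested probes, normalized values of 2 arrays had r of 0.956 to 0.986 within the Dnmt1-/- group, 0.972 to 0.987 within the Dnmt1+/+ group and 0.876 to 0.938 across groups. The Dnmt1 probe ILMN_2720451 had raw signals of 514, 176 and 177 on the Dnmt1-/- arrays and 1125, 1076 and 795 on the Dnmt1+/+ arrays, and fell by 2.11 on the log2 scale (limma adjusted p = 0.0019, n = 3 each). The position of this probe relative to the altered allele is not given in the sources used here. Among genes of the sex chromosomes, Xist RNA, which coats the inactive X chromosome, measured 933, 366 and 298 in Dnmt1-/- MEFs and 105, 102 and 99.0 in Dnmt1+/+ MEFs (probe ILMN_2475156, at least 14.9-fold higher, limma adjusted p = 6.5e-06). The Y-linked Eif2s3y measured 107, 103 and 90.6 in Dnmt1-/- MEFs and 246, 239 and 203 in Dnmt1+/+ MEFs (ILMN_1241001, at least 4.24-fold lower, limma adjusted p = 4.5e-05). Both bounds depend on the processing. Under other processing the log2 difference was as small as 2.40 for Xist (4.56 here) and -1.09 for Eif2s3y (-2.67 here). Kdm5d and Uty did not pass the filter. Rhox5 and Plac1 are X-linked, and the part of this difference between the lines in their values was not tested.

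Of the 18 probes, 5 passed the filter by being above background on 3 or more arrays, and these belong to 4 genes: Psg23 (1 probe), Prl2c2 (2 probes), Plac1 (1 probe) and Rhox5 (1 probe). The other 13 probes, all of Psg genes, were not above background on any array, so 6 of the 10 genes had no probe above background in either genotype. After normalization, all 3 Dnmt1-/- arrays lay above all 3 Dnmt1+/+ arrays for 5 of the 5 tested probes, where 16.6% of all tested probes did so and 21.6% lay apart the other way. Rhox5 passed the filter through its 3 Dnmt1-/- arrays and 1 Dnmt1+/+ array. Because the genes were chosen on this comparison, nothing is read from these shares and no call is given for a member. Over all 15795 tested probes the limma fit called 8.48% higher and 7.69% lower.

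**Figure D1:**
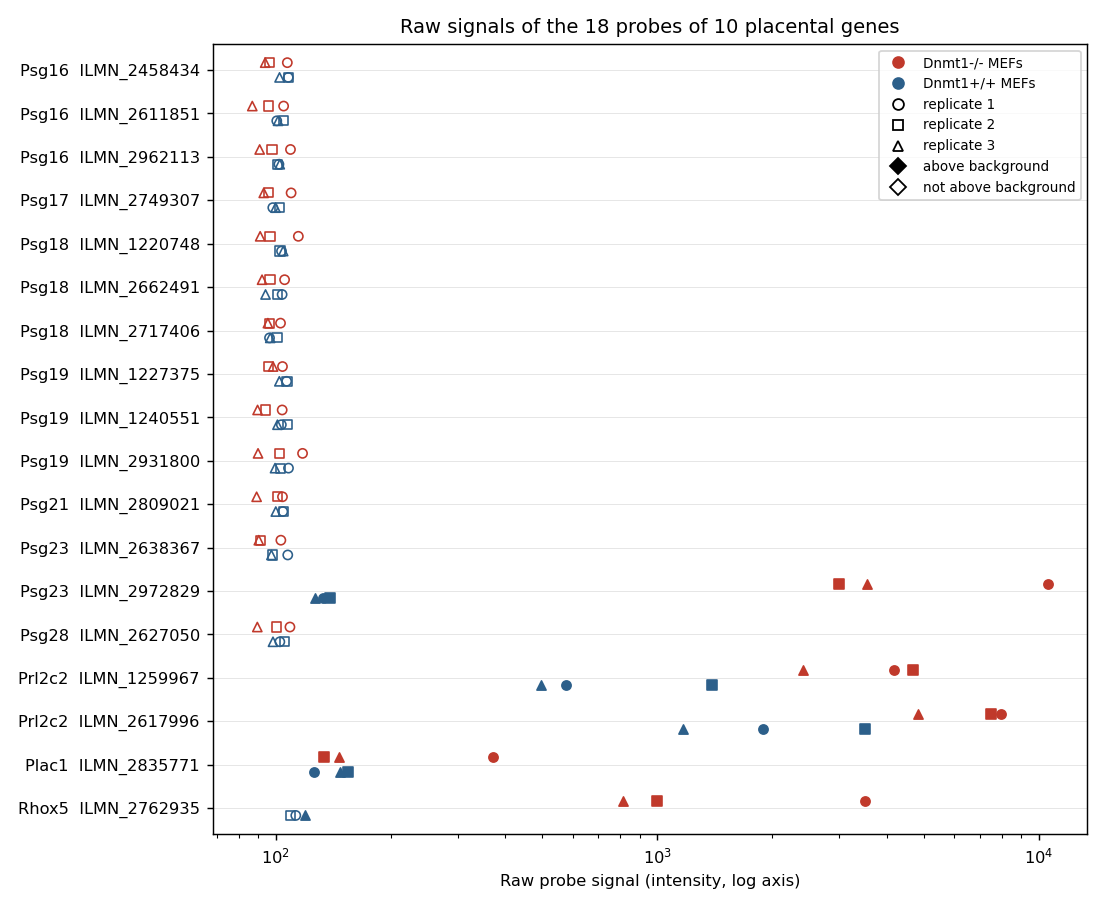
Raw signal of each of the 18 probes (log axis) on 3 Dnmt1-/- arrays (red, upper row of each pair) and 3 Dnmt1+/+ arrays (blue, lower row), with filled points above background. Only 1 Psg23 probe, both Prl2c2 probes, Plac1 and Rhox5 have filled points, and the 13 other Psg probes lie between 86.8 and 118 on every array.

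Psg23 had the widest gap of the 10 genes, on 1 of its 2 probes. Mouse Psg23 protein is known to induce vessel growth factors and TGF-beta in other cells. Probe ILMN_2972829 had raw signals of 10542, 2997 and 3545 in Dnmt1-/- MEFs and 133, 139 and 127 in Dnmt1+/+ MEFs. The lowest Dnmt1-/- array was far above every Dnmt1+/+ array, and Dnmt1-/- replicate 1 was the highest. The Dnmt1+/+ arrays were low but above background on all 3. Normalized values averaged 12.50 ± 0.55 in Dnmt1-/- MEFs and 5.46 ± 0.13 in Dnmt1+/+ MEFs (log2, SD, n = 3 each), a difference of 7.04 (SE 0.27) or 131-fold. The size depends on the background correction, and the authors' processed values gave a log2 difference of 5.29, which is 39.3-fold. The second Psg23 probe, ILMN_2638367, showed nothing of this. It measured 103, 91.3 and 90.3 in Dnmt1-/- MEFs and 108, 98.1 and 97.4 in Dnmt1+/+ MEFs, not above background on any array. The 2 probes of Psg23 thus disagree, and the files do not show which transcripts of the Psg family each of them binds.

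The other Psg genes were at background level in both genotypes. They encode closely related proteins, among them Psg17, which binds the tetraspanin CD9. Over the 13 untested probes raw signals ranged from 86.8 to 118 in Dnmt1-/- MEFs and from 94.0 to 108 in Dnmt1+/+ MEFs, and the lowest detection p on any array was 0.0427. Their normalized differences ran from -0.09 to 0.13 on the log2 scale with a median of 0.04. Only Psg17 ILMN_2749307 had its 3 Dnmt1-/- arrays above the Dnmt1+/+ arrays after normalization (raw 110, 95.9 and 93.0 in Dnmt1-/- MEFs, 98.2, 102 and 99.9 in Dnmt1+/+ MEFs), and only Psg19 ILMN_1240551 had them below (raw 104, 94.0 and 89.6 in Dnmt1-/- MEFs, 103, 107 and 101 in Dnmt1+/+ MEFs). Among all untested probes 5.91% were apart in the upward direction and 6.1% in the downward direction, so 1 of 13 each way is near the background. The single Psg21 probe, ILMN_2809021, measured 104, 101 and 89.1 in Dnmt1-/- MEFs and 104, 105 and 100.03 in Dnmt1+/+ MEFs. Thus Psg21, whose promoter window is nearly that of Psg23, was not above background on any array, like 1 of the 2 Psg23 probes. The single Psg28 probe, ILMN_2627050, likewise lay at 109, 100.4 and 89.5 in Dnmt1-/- MEFs and 103, 106 and 98.4 in Dnmt1+/+ MEFs. The 3 probes each of Psg16, Psg18 and Psg19 fell in the same range.

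Rhox5 was the other gene with a large gap. It is the founding member of the reproductive homeobox cluster. Probe ILMN_2762935 had raw signals of 3503, 996 and 814 in Dnmt1-/- MEFs and 113, 109 and 119 in Dnmt1+/+ MEFs. All Dnmt1-/- arrays were well above background, whereas only 1 of 3 Dnmt1+/+ arrays (replicate 3) was above it. Normalized values averaged 10.67 ± 0.57 in Dnmt1-/- MEFs and 4.72 ± 0.30 in Dnmt1+/+ MEFs (log2, SD, n = 3 each). Because the Dnmt1+/+ level was not measured on 2 arrays, the fold is a bound, at least 51.2-fold higher in Dnmt1-/- MEFs, taken from the mean of the Dnmt1-/- arrays against, on each Dnmt1+/+ array, the higher of the probe's own value and the lowest value among probes above background. The bound was 13.4 with the authors' processed values.

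**Figure D2:**
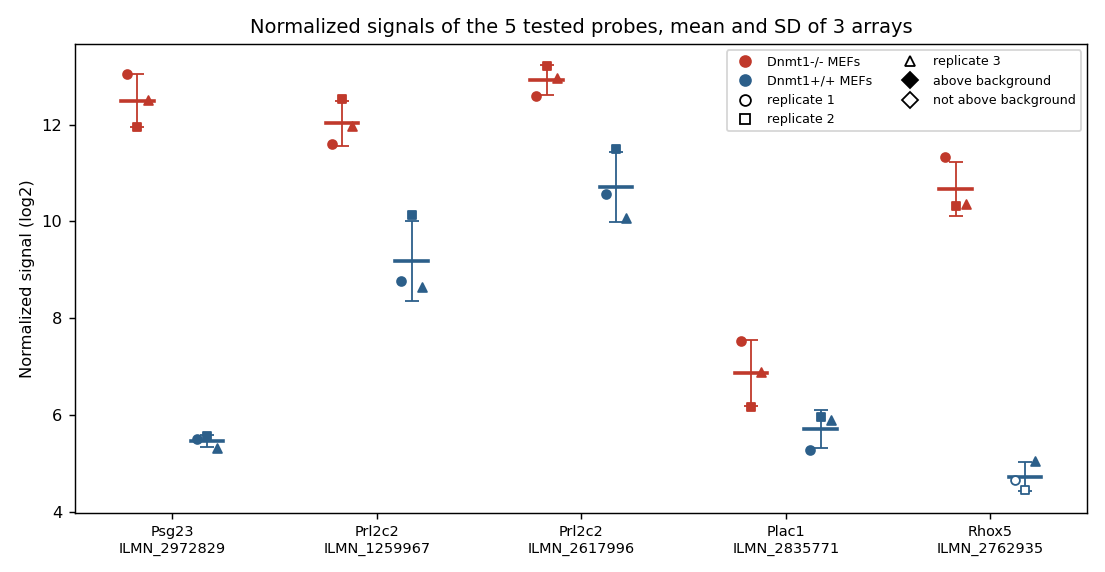
Normalized log2 signal of the 5 tested probes, with Dnmt1-/- arrays (red) left of Dnmt1+/+ arrays (blue), a line at the mean and a bar of 1 SD over 3 arrays; open points are not above background. Psg23 and Rhox5 have Dnmt1-/- means of 12.50 and 10.67 against Dnmt1+/+ means of 5.46 and 4.72, while Prl2c2 is bright in both genotypes.

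Prl2c2 differed from Psg23 and Rhox5 in that it was bright in both genotypes. Probe ILMN_1259967 measured 4176, 4668 and 2402 in Dnmt1-/- MEFs and 577, 1393 and 497 in Dnmt1+/+ MEFs. Probe ILMN_2617996 measured 7953, 7511 and 4827 in Dnmt1-/- MEFs and 1889.8, 3499 and 1168 in Dnmt1+/+ MEFs. On both probes the groups were apart and Dnmt1+/+ replicate 2 was the highest of its group. After normalization Dnmt1-/- replicate 2 was likewise the highest of its group on both probes. Normalized values of the first probe averaged 12.03 ± 0.47 in Dnmt1-/- MEFs and 9.18 ± 0.83 in Dnmt1+/+ MEFs, 7.19-fold higher (log2 difference 2.85, SE 0.41). Those of the second averaged 12.91 ± 0.31 in Dnmt1-/- MEFs and 10.71 ± 0.72 in Dnmt1+/+ MEFs, 4.62-fold higher (log2 difference 2.21, SE 0.35, SD and n = 3 each). Both probes thus showed the same direction with differences of similar size.

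Plac1, whose product is needed for growth of the mouse placenta, gave the smallest difference of the tested members. Probe ILMN_2835771 measured 370.5, 134 and 147 in Dnmt1-/- MEFs and 126, 155 and 148 in Dnmt1+/+ MEFs. The raw groups overlap, and only Dnmt1-/- replicate 1 stood clear. After normalization the Dnmt1-/- arrays were at 7.53, 6.16 and 6.89 and the Dnmt1+/+ arrays at 5.26, 5.96 and 5.90, so that the groups no longer overlapped, by a narrow margin. The means were 6.86 ± 0.69 in Dnmt1-/- MEFs and 5.71 ± 0.39 in Dnmt1+/+ MEFs (SD, n = 3 each), a log2 difference of 1.15 (SE 0.35) or 2.22-fold. Without Dnmt1-/- replicate 1 the difference was 0.80, and with the authors' processed values it was 0.56, which is 1.47-fold.

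The replicates did not vary in the same way for all members. Dnmt1-/- replicate 1 exceeded the mean of the other 2 Dnmt1-/- arrays by 0.82 for Psg23, 0.98 for Rhox5 and 1.01 for Plac1 on the log2 scale, and was below it by 0.66 and 0.49 for the Prl2c2 probes (values of -0.66 and -0.49). Over all tested probes this departure had a median of -0.02, a 5th percentile of -0.84 and a 95th percentile of 0.87, so the Psg23, Rhox5 and Plac1 probes lay at the 94.3, 96.4 and 96.7 percentiles. In Dnmt1+/+ MEFs the Prl2c2 probes stood out: replicate 2 was above the mean of the other 2 by 1.44 and 1.18, at the 99.97 and 99.9 percentiles of tested probes, where the 95th percentile was 0.37. Psg23 departed there by 0.15. Without Dnmt1-/- replicate 1 the log2 difference was 6.79 for Psg23 and the Rhox5 bound was 40.3-fold.

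**Figure D3:**
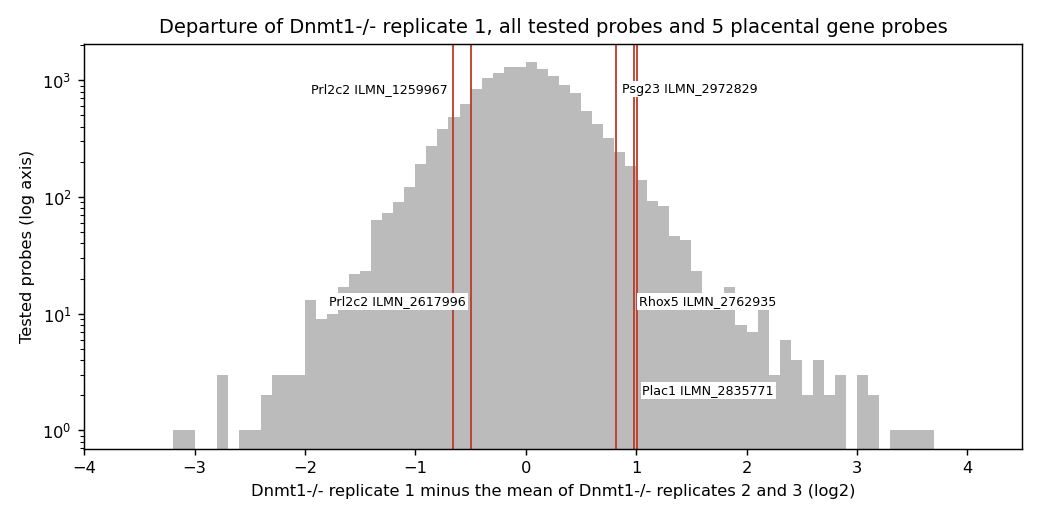
Histogram of the departure of Dnmt1-/- replicate 1 from the mean of Dnmt1-/- replicates 2 and 3 (log2) over the 15795 tested probes, count on a log axis, with red lines at the 5 probes. Psg23, Rhox5 and Plac1 sit at 0.82, 0.98 and 1.01, right of the bulk, and the Prl2c2 probes at -0.66 and -0.49.

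The other genes of these families and of trophoblast were then counted, from lists chosen by family or tissue and not by how the genes moved. Of 118 such genes 88 had a probe, 9 had a tested probe, 2 rose in Dnmt1-/- MEFs and 0 fell (limma, adjusted p under 0.05 over all 15795 tested probes), and 70 were not above background on any array. Over all 8716 tested genes 9.61% rose and 7.82% fell. The median log2 difference of the 9 tested genes was 0.19, and that of all tested genes was -0.05.

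The 2 that rose are the nearest relatives of Prl2c2. Prl2c3 and Prl2c4 encode further proliferins. Prl2c3 (ILMN_2875585) measured 7237, 9631 and 4690.1 in Dnmt1-/- MEFs and 2109.8, 3874 and 1342 in Dnmt1+/+ MEFs, a log2 difference of 2.07 (SE 0.38, limma adjusted p = 0.0094). Prl2c4 (ILMN_2996648) measured 6198, 7963 and 4037 in Dnmt1-/- MEFs and 1659, 3106 and 1007 in Dnmt1+/+ MEFs, a log2 difference of 2.18 (SE 0.41, limma adjusted p = 0.0099). The groups were apart for both genes, and Dnmt1+/+ replicate 2 was again the highest of its group, as for Prl2c2. Dnmt1-/- replicate 2 was also the highest of its group for both genes. Both calls were lost without Dnmt1-/- replicate 3 (adjusted p = 0.051 and 0.052) or without Dnmt1+/+ replicate 1 (0.051 and 0.051), and with no filter on low probes (0.062 and 0.066). Proliferin genes are near-identical copies, so these 4 probes may share targets and their signals cannot be assigned to single genes. The 2 calls may therefore repeat the signal of Prl2c2, which was chosen on this comparison, and are not separate evidence. Of the other 21 prolactin family genes with a probe, 18 were not above background on any array, and Prl3d3, a placental lactogen, differed by -0.03 (adjusted p = 0.95). The highest raw signal among probes of the family at background was 117 in Dnmt1-/- MEFs and 115 in Dnmt1+/+ MEFs.

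**Figure D4:**
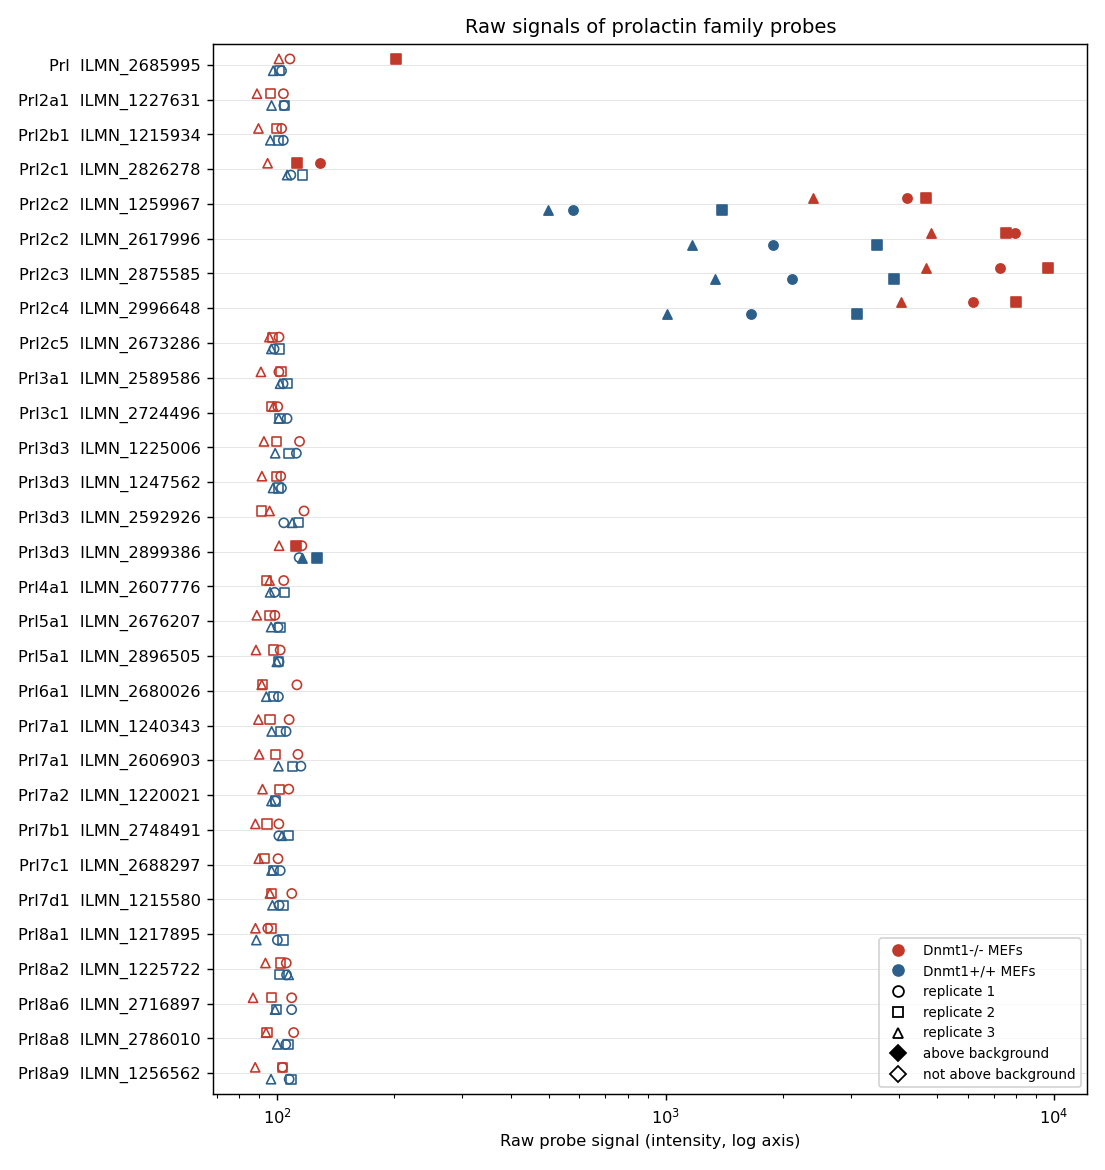
Raw signals (log axis) of the 2 Prl2c2 probes and of 28 probes of other prolactin family genes on the 3 Dnmt1-/- arrays (red, upper row of each pair) and 3 Dnmt1+/+ arrays (blue, lower row), with filled points above background. The Prl2c2, Prl2c3 and Prl2c4 probes stand between 497 and 9631, and nearly all others lie at background near 100.

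Relatives of the other members did not pass the filter. None of 21 other Psg and Ceacam genes with a probe, 8 other Rhox genes or 9 placental cathepsin genes had a tested probe, and 19, 7 and 8 of them were not above background on any array. Rhox5 was thus the one gene of its cluster, among the 9 with a probe here, to pass the filter. Among 27 trophoblast regulators and other placental genes with a probe, 6 were tested and none passed: Ets2 (log2 difference 0.68, adjusted p = 0.067), Gata2 (0.20, 0.55), Gata3 (-0.27, 0.25), Ovol2 (-0.18, 0.59), Ppp1r3f (-0.71, 0.081) and Tead4 (0.19, 0.73), all from the limma fit. Most of these are transcription factors that act in trophoblast and in other tissues.

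Cell type markers were read beside the members. For the counts of each list, the shares over all tested genes were 9.61% higher and 7.82% lower, and nothing is read from counts this small. Of 14 trophoblast markers 11 had a probe, and 10 of these (Cdx2, Eomes, Elf5, Hand1 and Ascl2 among them) were not above background on any array. The other, Krt8, had a probe above background on 2 Dnmt1-/- arrays and 0 Dnmt1+/+ arrays. The summed raw signal of the 20 probes of the 11 markers was 1831 to 2172 on Dnmt1-/- arrays and 2048 to 2080 on Dnmt1+/+ arrays. Of these 20 probes 19 were not above background on any array, so the sums are mostly background signal. Of 14 yolk sac and endoderm markers 8 were not above background on any array and the 2 tested, Apoa2 and Hnf4a, differed by -0.42 (limma adjusted p = 0.23) and -0.19 (0.66), with summed signals of 1905 to 2228 on Dnmt1-/- arrays and 2132 to 2230.1 on Dnmt1+/+ arrays. The MEF label was checked on 17 fibroblast markers, of which 14 were tested, 1 rose and 2 fell, and 2 (Fap and Postn) were not above background on any array. Vimentin (Vim, ILMN_2451022) measured 10619, 9286 and 5987 in Dnmt1-/- MEFs and 13289, 14001 and 11852 in Dnmt1+/+ MEFs, so this fibroblast marker was bright on every array. S100a4, a calcium-binding protein of motile fibroblasts, rose by 1.57 (adjusted p = 0.030), fibronectin (Fn1) fell by 2.07 (0.0041) and the surface glycoprotein Thy1 was at least 2.11-fold lower and not above background on any Dnmt1-/- array (0.0032). The Thy1 bound depends on the processing, and under other processing its log2 difference was as small as -0.60 (-1.75 here). The S100a4 call was lost without Dnmt1-/- replicate 1 or 3 or Dnmt1+/+ replicate 1 or 2 (adjusted p = 0.059 to 0.096). Of 10 pluripotency and germ cell markers 8 were not above background on any array, Pou5f1 and Nanog among them, and 2 passed: Tex19.1, a gene of germ cells and placenta, at least 85.0-fold higher, and Dppa5a, at least 1.42-fold higher (adjusted p = 9.1e-06 and 0.029). These bounds depend on the processing. Under other processing the log2 difference was as small as 4.64 for Tex19.1 (7.02 here) and 0.25 for Dppa5a (0.84 here). Tex19.1 passed the filter only through its Dnmt1-/- arrays, so the direction of its call is largely set by the filter. The Dppa5a call was lost without any 1 of the Dnmt1+/+ replicates (0.062 to 0.11). Both the S100a4 and the Dppa5a call also ended with median scaling and with no filter, and that of Dppa5a with no background correction (0.11), an offset of 50 (0.072) and the authors' processed values (0.081).

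Receptors and partners that are known to bind or act with the members' products changed in both directions. Of 9 with a probe 6 were tested, 3 rose and 2 fell, where 9.61% of all tested genes rose and 7.82% fell. Cd9, the receptor of mouse Psg17, rose by 1.00 (SE 0.26, limma adjusted p = 0.036) and Tgfb1, a growth factor that Psg proteins induce and activate, by 0.67 (0.18, 0.043). Fgf7, a growth factor linked to Plac1, rose by 0.88 (0.24, 0.041), and its receptor Fgfr2 fell by 0.80 (0.21, 0.035). Each of these 4 calls was lost when single arrays were left out: without Dnmt1-/- replicate 2 or 3 or without Dnmt1+/+ replicate 1 or 2 in all 4 genes, and also without Dnmt1+/+ replicate 3 in Fgf7, Fgfr2 and Tgfb1 (adjusted p up to 0.14). All 4 were also lost with median scaling and with no filter, Fgf7 and Tgfb1 among probes detected on all 6 arrays, Fgfr2 with cyclic loess (0.060), and Tgfb1 with no background correction (0.054) and with the authors' processed values (0.064). Igf2r, the mannose 6-phosphate receptor through which proliferin is taken up, was lower on both of its tested probes. Probe ILMN_2931095 measured 189, 94.7 and 84.1 in Dnmt1-/- MEFs and 300.5, 310 and 415 in Dnmt1+/+ MEFs, at least 5.56-fold lower (adjusted p = 0.0045), and ILMN_2931096 was at least 4.47-fold lower (0.0011). Both bounds depend on the processing. Under other processing the log2 differences were as small as -1.51 for ILMN_2931095 (-3.05 here) and -1.12 for ILMN_2931096 (-2.40 here). Among the Dnmt1-/- arrays, only replicate 1 was above background on either probe. Unc5c, a netrin receptor gene that Rhox5 regulates in mouse testis, had a log2 difference of -0.91 that did not pass (adjusted p = 0.062).

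Genes next to the members on the chromosome mostly did not follow them. Taking the 5 nearest tested genes on each side outside these families, in the order of the RefSeq gene table, 5 of 40 rose and 2 fell, where 9.61% and 7.82% of all tested genes did so. By locus, 3 of 10 rose around the Psg cluster, 0 of 10 around Prl2c2, 1 of 10 around Rhox5 and 1 of 10 around Plac1. In the same order 0, 1, 1 and 0 fell. Around the Psg cluster on chromosome 7, Dmpk, a protein kinase of muscle, rose by 2.27 (SE 0.27, limma adjusted p = 0.00098), Prkd2, a protein kinase, by 0.96 (0.21, 0.018), and Gng8, a G protein subunit, was at least 2.11-fold higher (0.022). The Dmpk probe ILMN_1237061 measured 806, 263 and 233 in Dnmt1-/- MEFs and 147, 161 and 168 in Dnmt1+/+ MEFs, with the groups apart. The tested genes flanking the cluster most closely, Ppp5c and Ccdc61, did not pass. Around Prl2c2 on chromosome 13, Arid4b was at least 1.79-fold lower (0.011), and around Rhox5, Nkap rose by 0.59 (0.032) and the small nucleolar RNA Snora69 was at least 3.23-fold lower (0.00041). Around Plac1, Rtl8c, a gene derived from a retrotransposon, was at least 1.47-fold higher (0.0061). The bounds given for these neighbours depend on the processing. Under other processing the log2 differences were as small as 0.49 for Gng8, -0.30 for Arid4b, -0.74 for Snora69 and 0.38 for Rtl8c. Rtl8c passed the filter only through Dnmt1-/- arrays and Snora69 only through Dnmt1+/+ arrays. The Prkd2, Gng8, Arid4b and Nkap calls were each lost when single arrays were left out, without Dnmt1-/- replicate 3 or Dnmt1+/+ replicate 1 in all 4, without Dnmt1+/+ replicate 2 in all but Arid4b, without Dnmt1-/- replicate 2 in Gng8 and Nkap, and without Dnmt1-/- replicate 1 or Dnmt1+/+ replicate 3 in Nkap (adjusted p up to 0.16). Median scaling ended these 4 calls and that of Rtl8c, no filter those of Gng8 (0.098) and Prkd2 (0.053), and no background correction that of Gng8 (0.051).

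**Figure D5:**
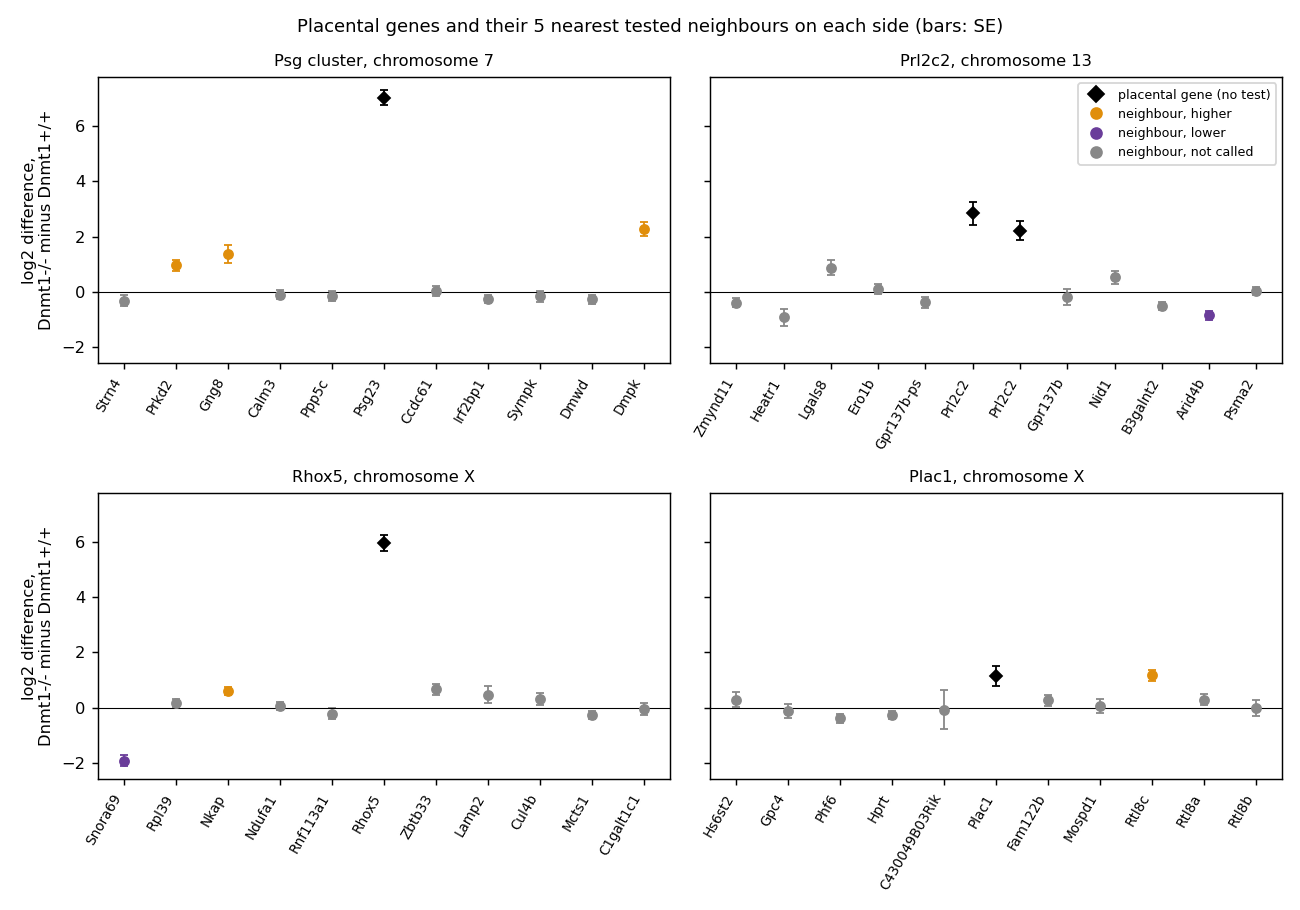
Log2 difference (Dnmt1-/- minus Dnmt1+/+, bars 1 SE) of the tested members (black diamonds, no test) and of the 5 nearest tested genes on each side in chromosome order, coloured by the limma call. Psg23, shown by 1 of its 2 probes, stands at 7.04. Dmpk, the furthest of the 5 genes after the cluster, stands at 2.27, and the genes between (Ccdc61, Irf2bp1, Sympk and Dmwd) were not called. Points of genes with a group not fully above background, among them Rhox5, Gng8, Arid4b, Snora69 and Rtl8c, are fitted values for which the text gives bounds.

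The genes whose values over the 6 arrays were most like those of each member, by the root mean square difference of log2 values centred on their own mean among 8500 named genes, are given as a description. For the Psg23 probe ILMN_2972829 they were the X-linked Xlr4a (0.21), Tex19.1 (0.25) and the oocyte gene Nlrp4c (0.43), and for Rhox5 they were the testis gene Fmr1nb (0.26), Nlrp4c (0.30) and the vomeronasal receptor gene Vmn1r123 (0.33). These 5 genes all passed the background threshold on 3 of 3 Dnmt1-/- arrays and on 0 of 3 Dnmt1+/+ arrays. Xlr4a (ILMN_2965669), for example, measured 4182, 1692 and 1418 in Dnmt1-/- MEFs and 102, 101 and 99.2 in Dnmt1+/+ MEFs. For Prl2c2 the most alike were Prl2c4 (0.15), Prl2c3 (0.16) and Tafa5 (0.30), and for Plac1 they were Hexim2 (0.15), Ak1 (0.16) and Tle5 (0.16). Like Plac1, these last 3 were brightest on Dnmt1-/- replicate 1, for example Ak1 (ILMN_2667805) with 833, 201 and 226 in Dnmt1-/- MEFs and 211, 260.1 and 237 in Dnmt1+/+ MEFs.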

How the data were processed

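Total RNA of MEFs was labelled and hybridised to 6 Illumina BeadChips. The authors deposited raw probe intensity on a linear scale, each value with a detection p-value, and separately a processed intensity table, which they derived in lumi (its version is not given in the sources used here) through background subtraction, variance stabilization and robust spline normalization. Here the function neqc (limma 3.58.1, R 4.3.3) was run on raw intensities: normexp background correction, with negative controls estimated through the detection p-values, an offset of 16, quantile normalization and log2. A probe was tested where its detection p was under 0.01 on at least 3 of 6 arrays (15795 of 45281, 34.9%), with lmFit and eBayes, two-sided, with no term besides genotype. Calls were made at 0.05 after Benjamini-Hochberg adjustment across tested probes. A probe above background in 1 genotype only enters the fit through the group where it is high. The direction of its call is then largely set by the filter. A gene outside the members was read from its tested probe with the highest mean. The platform annotation gives 1 symbol for 34885 probes, several for 18 and no symbol for 10378. No member was matched through a synonym only (0). Arrays carry no sequencing depth, and their number limits the precision.

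Members and lists were chosen with earlier results of these data known, so members are described without a test. Named are all members, up to 4 called genes per list with the largest differences, every tested gene of lists with 6 or fewer tested, called neighbours, sex-linked genes, Dnmt1 and the 3 genes most like each tested member. Vim, Xlr4a and Ak1 values and the undetected markers named were chosen after values were seen. Promoters were read from RefSeq, aligned globally with Biopython. The steps were tested on simulated data, whose replicate noise was set in advance and not matched to that of these arrays. Alternatives were other background corrections, normalizations and filters, the authors' values, a replicate block and leaving out each array. Protein features were not analysed here.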

Additional observations from a re-analysis of the deposited data

How the results depend on the processing

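Of 502 values recomputed for 36 results, 382 stayed on the same side of their threshold or within the limits set for a description, 80 calls were lost, 40 values moved and 0 changed direction. A change of filter cannot alter the difference of a member or the Rhox5 bound, so these values were unchanged by construction under the filter settings. No member changed sign: log2 differences ranged over the alternatives from 5.29 to 7.32 for Psg23, 2.48 to 3.32 and 1.81 to 2.60 for the Prl2c2 probes, 0.56 to 1.52 for Plac1 and 3.84 to 6.19 for Rhox5, and 4 to 6 member probes had their arrays apart. The count of probes higher in Dnmt1-/- MEFs, 1339, was 445 with median scaling and 719 among probes detected on all 6 arrays. The count of lower probes, 1214, was 656 and 663 under the same settings. Median scaling moved the median log2 difference of all tested probes to -0.36, against -0.08. Leaving out 1 array gave 416 to 1159 higher probes (824 and 416 without Dnmt1-/- replicates 2 and 3, 700 and 647 without Dnmt1+/+ replicates 1 and 2) and 241 to 1101 lower probes (455 without Dnmt1-/- replicate 3, and 306, 241 and 672 without Dnmt1+/+ replicates 1, 2 and 3). Of the placental genes other than members, the 2 higher calls became 0 with no filter and 0 to 2 with an array left out (0 without Dnmt1-/- replicate 3 or Dnmt1+/+ replicate 1), and the 0 lower calls 0 to 1 (1 without Dnmt1-/- replicate 1). The 5 higher neighbours became 1 with median scaling, 3 among probes detected on all 6 arrays, 3 with no filter and 1 to 4 with an array left out (1 without Dnmt1-/- replicate 3, and 2 without Dnmt1-/- replicate 2 or Dnmt1+/+ replicate 1 or 2). The 2 lower neighbours became 0 among probes detected on all 6 arrays and 0 to 2 with an array left out (0 without Dnmt1+/+ replicate 1, and 1 without Dnmt1-/- replicate 3 or Dnmt1+/+ replicate 2 or 3). The filter on all 6 arrays tests fewer probes and fits without an array use fewer samples, and otherwise the cause was not tested. Replicate numbers did not pair the arrays as a whole (correlations of deviations -0.23, 0.33 and -0.14). Only for number 2 was the best partner the array of the same number. A replicate block gave 945 higher and 691 lower probes, without the calls of Dppa5a, Fgf7, Tgfb1, S100a4 and Nkap. Signals near background limit 13 of the 14 Psg probes, for which only a level not above background can be stated.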

Other observations

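Several placental relatives outside the tested set were above background on 1 or 2 arrays, and these were picked after their values were seen. Prl, the pituitary hormone gene, had a raw signal of 203 on Dnmt1-/- replicate 2, with 108 and 101 on the other Dnmt1-/- arrays and 97.7 to 103 on the Dnmt1+/+ arrays. Prl2c1 was above background on 2 Dnmt1-/- arrays (129 and 113, against 94.5 on replicate 3) and measured 106 to 116 in Dnmt1+/+ MEFs. The trophoblast gene Dlx3 reached 145 on Dnmt1-/- replicate 1, with 99.3 and 103 on the other Dnmt1-/- arrays and 105 to 113 in Dnmt1+/+ MEFs, and the keratin gene Krt8 had 134, 117 and 101 in Dnmt1-/- MEFs and 104 to 108 in Dnmt1+/+ MEFs. Among probes of the Psg family, Psg27 passed the background threshold on 1 Dnmt1-/- array only, with 113, 103 and 105 in Dnmt1-/- MEFs and 103 to 108 in Dnmt1+/+ MEFs.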
